A study of Rattus norvegicus with 4 samples.

Results

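The replacement histone variant genes are a group of 7 rows out of 54532 in the deposited count table, namely H2afv, H2afz, H2afx, H2afy, H2afj, H3f3a and H3f3b. They were picked by gene symbol as a family. The family itself came into view because the counts of H2afv had stood out between AAV-Fgf7 and control-injected ears in an earlier reading of the same table. The members' values in that comparison are therefore given as a description, and no test of a member is drawn from it. All 7 members had a count in some library, and 6 passed the low-count filter (at least 7.02 CPM, counts scaled to library size, in 2 libraries), whereas H2afx did not. H2afv passed through its 2 AAV-Fgf7 libraries and through neither control library.

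The libraries came from ear skin of 2 SD (Sprague Dawley) rats, taken at day 3 after the ears had received adeno-associated virus (AAV), which serves as a carrier of genes. In each rat 1 ear was given a virus with the gene for fibroblast growth factor 7 (AAV-Fgf7, genotype labelled Fgf7 overexpression) and the opposite ear was given AAV-control (genotype labelled wt), so each group held 2 libraries, 1 per rat. The titles and the series text disagree on which side received which virus, and side was not used. Rats 1 and 2 are given an identical column name for their AAV-Fgf7 samples, so which column belongs to which rat rests on the column numbers, and so do the ratios within a rat. The sources used here do not state the promoter of the transgene, the insert of the control virus or the age of the rats.

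Histones package DNA into nucleosomes. Most histone genes are transcribed in S phase from clusters and yield messages without a poly(A) tail. Replacement variants are mostly made throughout the cell cycle from dispersed genes with polyadenylated messages. Dedicated chaperones and remodellers put them into chromatin. H2afv and H2afz encode H2A.Z.2 and H2A.Z.1, near-identical H2A.Z proteins found around the start sites of many genes. H3f3a and H3f3b encode the same protein, histone H3.3, which marks transcribed genes and regulatory regions. H2afy encodes macroH2A1, which carries a large C-terminal macro domain, H2afx encodes H2A.X, which is phosphorylated beside DNA breaks, and H2afj encodes H2A.J, an H2A variant with a distinct C-terminal tail.

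The results turn on the pair of H2A.Z genes, so the 250 bases upstream of the start of each in the rat are shown (RefSeq, build GRCr8, in the direction of transcription). Rat H2az2 is the gene whose older symbol is H2afv, and its stretch lies at chr14:85526069-85526318 on the minus strand. Rat H2az1, formerly H2afz, has its stretch at chr2:229028845-229029094 on the plus strand. Capitals mark every CCAAT box, the binding motif of the factor NF-Y, read on either strand (CCAAT or ATTGG).
H2az2 (H2afv): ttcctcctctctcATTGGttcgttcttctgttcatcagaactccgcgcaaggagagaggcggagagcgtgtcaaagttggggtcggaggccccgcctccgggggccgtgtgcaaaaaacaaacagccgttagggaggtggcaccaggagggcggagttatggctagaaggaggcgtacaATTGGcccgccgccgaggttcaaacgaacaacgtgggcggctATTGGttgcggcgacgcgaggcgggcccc
H2az1 (H2afz): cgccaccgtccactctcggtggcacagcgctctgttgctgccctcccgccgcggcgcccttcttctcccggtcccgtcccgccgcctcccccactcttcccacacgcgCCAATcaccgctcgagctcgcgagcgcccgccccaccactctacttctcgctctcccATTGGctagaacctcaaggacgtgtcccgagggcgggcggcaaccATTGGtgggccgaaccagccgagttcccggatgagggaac
Each of these stretches held 3 CCAAT boxes. Counted over the whole window of 300 bases (250 before and 50 after the start), 6 of the 7 members held the motif, all but Macroh2a1, the rat gene of H2afy, against 37.6% of 27457 rat promoter windows of that length. The motif TTTGAA (either strand), whose letters match the cell cycle element called CHR, occurred once in the window of H2az2, once in that of H2az1 and once in that of H2ax, and in 18.2% of all windows. These letter matches describe the promoters and say nothing about which factors bound them in these samples.

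Library totals ranged from 1299136 to 1601321 counts. The rat counts are listed under mouse gene models, and 7.51% to 8.93% of the counts of a library lay on rows listed as mouse processed pseudogenes. How reads were divided between near-identical rows is unstated in the sources used here. Basal keratinocyte markers were counted in every library, while the fibroblast markers Dcn and Lum were listed at 0 throughout, so a row at 0 does not show that a transcript was missing. The libraries also differed in other ear tissues: the 8 skeletal muscle markers summed to 11763 and 48705 CPM in the control libraries (rat 1, then rat 2) and to 25674 and 12513 CPM in their AAV-Fgf7 libraries. In bulk tissue, fewer or more cells of a type and less or more RNA per cell cannot be told apart.

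H2afv was the member whose groups lay apart. It drew 7 and 4 raw counts in the control-injected ears of rats 1 and 2 and 131 and 69 in the AAV-Fgf7-injected ears of the same rats. Both AAV-Fgf7 libraries thus stood far above both controls, and the 95% exact Poisson intervals, which cover counting error only, ran from 1.09 to 14.4 counts over the controls and from 53.7 to 155 over the AAV-Fgf7 libraries. On the CPM scale, with library scaling by trimmed mean of M values (TMM), the level was 3.95 ± 1.86 in control and 69.4 ± 31.3 in AAV-Fgf7-injected ears (SD, n = 2). With the columns as numbered, the AAV-Fgf7 ear held 17.4 times the CPM of the control ear in rat 1 and 17.9 times in rat 2. With the AAV-Fgf7 columns exchanged between the rats these ratios were 8.99 and 34.8. Since they divide by control counts of 7 and 4, their sizes are imprecise. The log2 fold change fitted by edgeR was 4.13 (SE 0.55), the third highest among 6370 tested genes. As H2afv brought the family into view through this comparison, its rank, its fold change and the intervals of its counts are no separate result. The gene is listed as ENSMUSG00000041126 at mouse chr11:6427229-6444443 (minus strand), where the listed model spans 1633 bases. For these listed coordinates the sources used here name no mouse build.

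**Figure D1:**
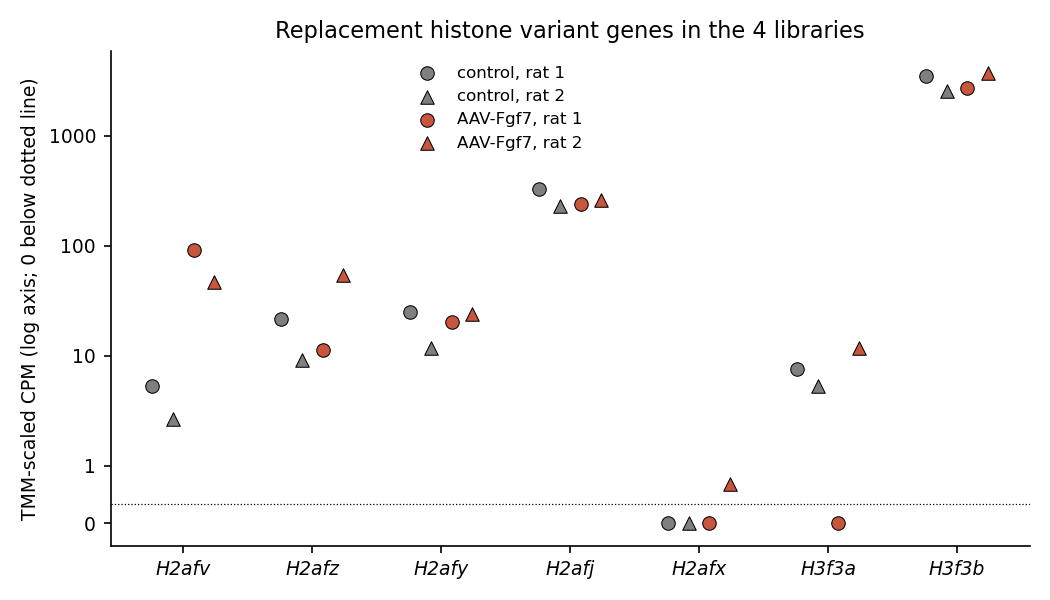
TMM-scaled CPM (log axis) of the 7 members, with 1 point per library (grey for control, red for AAV-Fgf7, circles for rat 1, triangles for rat 2) and counts of 0 drawn below the dotted line. The red points of H2afv lie above its grey points, while those of the other tested members mix with the grey ones.

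Summed markers of dividing cells and of basal keratinocytes were also higher in both AAV-Fgf7 libraries than in both controls. Of 12 markers of dividing cells all had a count, and the 6 that were tested had positive log2 fold changes. These 6 were higher in each AAV-Fgf7 library than in either control, as were 14.8% of all tested genes. The list of 12 summed to 50.3 and 34.9 CPM in control and to 104 and 157 CPM in AAV-Fgf7-injected ears of rats 1 and 2. The 7 basal keratinocyte markers, of which 6 were tested and 0 were at 0 in all libraries, summed to 1103 and 922 against 1450 and 3075 CPM. Of the 6 tested ones, 3 were higher in each AAV-Fgf7 library than in either control. Within the AAV-Fgf7 group both sums were higher in rat 2, whereas H2afv was higher in rat 1 (91.5 against 47.3 CPM). The 8 listed hair follicle markers, of which Krt35 and Krt72 were at 0 in all libraries, summed to 34.6 and 1067 CPM in control and 3409 and 171 CPM in AAV-Fgf7-injected ears. The part of these tissues and cell states in the result for H2afv was not tested.

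H2afz, which encodes the partner protein H2A.Z.1, differed in direction between the 2 rats with the columns as numbered. It drew 29 and 14 raw counts in the control-injected ears of rats 1 and 2 and 16 and 80 in the AAV-Fgf7-injected ears of the same rats. The AAV-Fgf7 library of rat 2 was the highest and that of rat 1 lay between the controls, so the groups overlapped. Levels were 15.5 ± 8.89 CPM in control and 32.99 ± 30.84 CPM in AAV-Fgf7-injected ears (SD, n = 2), with a log2 fold change of 1.10 (SE 0.80). The ratio of the AAV-Fgf7 ear to the control ear was 0.513 in rat 1 and 5.94 in rat 2. With the AAV-Fgf7 columns exchanged between the rats, it was 2.52 and 1.21, so the difference in direction depended on their assignment. With the AAV-Fgf7 library of rat 2 left out, the log2 fold change became -0.46, so its sign rested on that library. H2afz is listed as ENSMUSG00000037894 at mouse chr3:137864487-137866922 (plus strand).

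Read together, the H2A.Z pair had 36 and 18 counts in control-injected ears and 147 and 149 in AAV-Fgf7-injected ears of rats 1 and 2. Scaled to library size the sums were 27.0 and 11.9 CPM against 103 and 102 CPM, so the AAV-Fgf7 libraries of the 2 rats were nearly equal in the sum and unlike in how it was divided. H2afv made up 19.4% of the pair in the control ear of rat 1 (95% exact Clopper-Pearson interval 8.19% to 36.0%) and 22.2% in that of rat 2 (6.41% to 47.6%). In AAV-Fgf7-injected ears its share was 89.1% in rat 1 (82.9% to 93.6%) and 46.3% in rat 2 (38.1% to 54.7%). These intervals cover the counting of reads within a library and not the spread between animals, so they are no test between libraries. As the columns are numbered, the sum of the pair in the AAV-Fgf7 ear was 3.798 times that in the control ear in rat 1 and 8.61 times in rat 2. The sum contains H2afv and so shares the choice by its values.

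**Figure D2:**
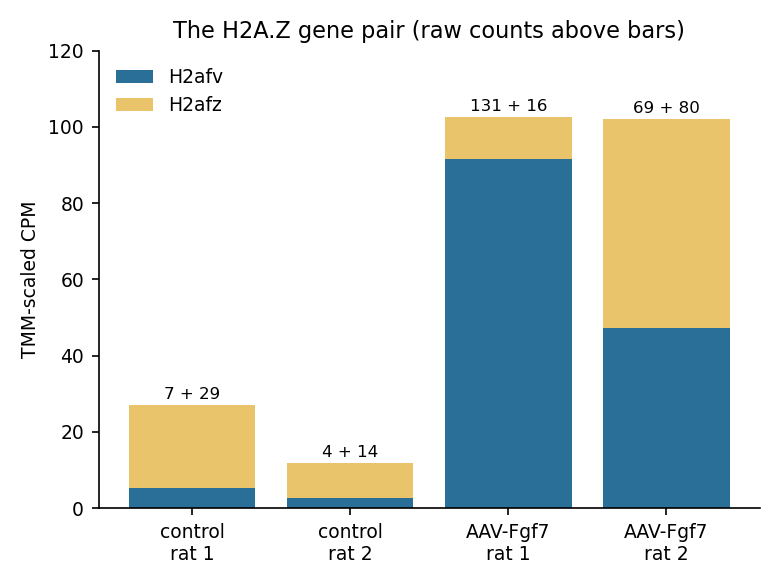
TMM-scaled CPM of H2afv (blue) and H2afz (yellow), stacked for each library, with the raw counts of both above each bar. The AAV-Fgf7 bars are of nearly equal height, 103 and 102 CPM, but H2afv fills 89.1% of the counts in rat 1 and 46.3% in rat 2.

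No row of the table is described as a pseudogene of H2afv, and the row described as a pseudogene of H2afz had 0 counts in all libraries. Shared reads between H2afv or H2afz and a described pseudogene were therefore not seen in the table, which does not tell whether unnamed rows hold such reads. In the RefSeq gene list of the rat, 5 further rows carry the H2az2 symbol stem (3 listed as protein coding, 2 as pseudogenes) and 2 carry that of H2az1 (both pseudogenes). Reads of such rat copies could not be followed in a table of mouse models.

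H3f3b carried most counts of the 7 member rows. Which H3.3 gene was more abundant is not settled, since a pseudogene row of H3f3a also held many counts. Its raw counts were 4635 and 3898 in control-injected ears and 3910 and 5414 in AAV-Fgf7-injected ears of rats 1 and 2. The groups overlapped, with the control ear of rat 1 and the AAV-Fgf7 ear of rat 2 high and the other libraries low. Levels were 3024 ± 647 CPM and 3220 ± 690 CPM (SD, n = 2), and the log2 fold change came to 0.09 (SE 0.24). The ratio of the AAV-Fgf7 ear to the control ear was 0.785 in rat 1 and 1.44 in rat 2 as numbered, and 1.07 and 1.06 with the AAV-Fgf7 columns exchanged. H3f3b is listed as ENSMUSG00000016559 at mouse chr11:116021912-116027962 (minus strand).

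H3f3a, which encodes the same H3.3 protein, had few counts under its own gene model and many under a pseudogene. The row H3f3a held 10 and 8 counts in control and 0 and 17 in AAV-Fgf7-injected ears of rats 1 and 2. The 0 in the AAV-Fgf7 ear of rat 1 allows up to 2.10 CPM (3 counts). Its exact 95% Poisson interval reached 3.69 counts, beside 4.795 to 18.39 counts in the control ear of that rat, so the size of the difference is poorly known. In rat 2 the CPM of the AAV-Fgf7 ear was 2.21 times that of the control ear, with the columns as numbered. H3f3a-ps2, a processed pseudogene of H3f3a on mouse chromosome 16 (91114189 to 91114599, minus strand), held 939 and 1187 counts in control and 976 and 1298 in AAV-Fgf7-injected ears. H3f3a-ps1, on mouse chromosome X, held 5 and 5 against 3 and 7, and the other 3 rows described as H3f3a pseudogenes held 0. H3f3c, an H3.3 family row listed as a processed pseudogene on mouse chromosome 2, held 330 and 491 against 330 and 624. Pseudogene rows of H3f3a thus held far more counts than the gene row in every library.

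Levels per length showed the same division between the H3f3a gene row and H3f3a-ps2. In the authors' FPKM (fragments per kilobase of gene model, scaled to library size), H3f3a-ps2 stood at 1709 and 1887 in control and 1641 and 2145 in AAV-Fgf7-injected ears, which was 1.47 to 2.20 times the FPKM of H3f3b in the same library. The listed models span 411 bases for H3f3a-ps2 and 2976 for H3f3b. In raw counts the order was the opposite, with H3f3b above H3f3a-ps2 in every library. H3f3b stood at 1165 and 856 against 908 and 1236 FPKM, and H3f3a at 2.13 and 1.49 against 0 and 3.3 FPKM. Summed with its described pseudogenes, H3f3a had 954 and 1200 counts in control and 979 and 1322 in AAV-Fgf7-injected ears. The ratio between the ears was then 0.954 in rat 1 and 1.15 in rat 2, and the log2 fold change moved from -0.12 (SE 1.22) for the gene row to 0.08 for the sum. The gene row and its described pseudogenes are thus uncertain as separate measures. H3f3a is listed as ENSMUSG00000060743 at mouse chr1:180800832-180813943 (minus strand).

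Over the 5 H3.3 rows with counts, the libraries held 5919 and 5589 counts in control and 5219 and 7360 in AAV-Fgf7-injected ears. H3f3b made up 78.3% of them in the control ear of rat 1, 69.7% in that of rat 2, 74.9% in the AAV-Fgf7 ear of rat 1 and 73.6% in that of rat 2. The control libraries thus marked the extremes of this share, with the AAV-Fgf7 libraries between them. H3f3a-ps2 took 15.9% to 21.2% and H3f3c 5.58% to 8.79% of the H3.3 counts. Scaled to library size, the sum over the rows was 4063 ± 542 CPM in control and 4344 ± 986 CPM in AAV-Fgf7-injected ears (SD, n = 2).

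**Figure D3:**
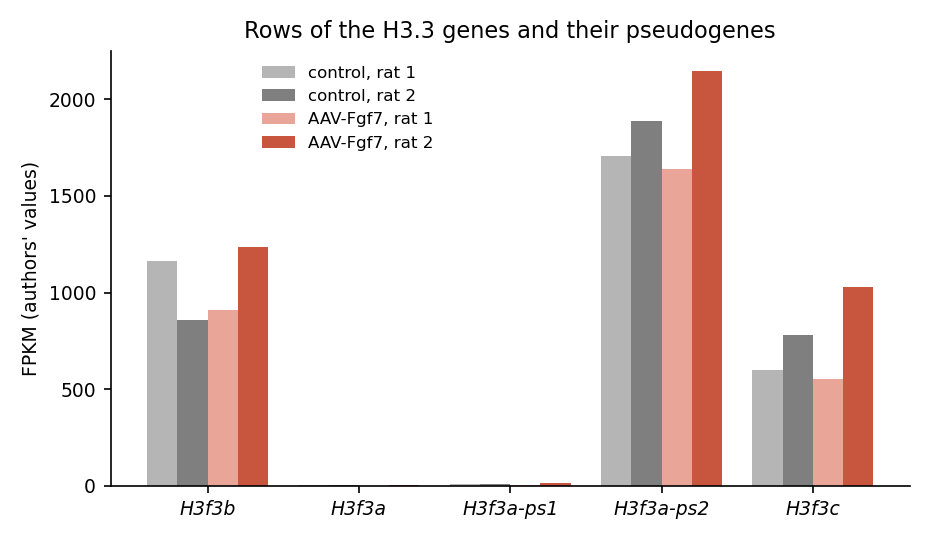
FPKM as deposited by the authors for H3f3b, H3f3a, its pseudogenes H3f3a-ps1 and H3f3a-ps2, and H3f3c, with 1 bar per library. H3f3a-ps2 has the tallest bars in every library, while the bars of the H3f3a gene row (at most 3.3 FPKM) cannot be seen on this scale. FPKM divides by listed model length, 411 bases for H3f3a-ps2 and 2976 for H3f3b, and raw counts were higher for H3f3b.

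H2afj, the gene of H2A.J, had the most counts among the H2A variant genes and varied least. Raw counts were 436 and 346 in control and 344 and 377 in AAV-Fgf7-injected ears of rats 1 and 2. Both AAV-Fgf7 libraries lay within the range of the controls, at 278 ± 70.5 CPM in control and 249 ± 12.6 CPM in AAV-Fgf7-injected ears (SD, n = 2), and the log2 fold change was -0.15 (SE 0.24). The highest library was 1.44 times the lowest. H2A.J is close in sequence to replication-dependent H2A proteins, and reads shared with such genes were not separated here. H2afj is listed as ENSMUSG00000060032 at mouse chr6:136808244-136810074 (plus strand).

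H2afy, the gene of macroH2A1, was a low-count member. Raw counts were 33 and 18 in control and 29 and 35 in AAV-Fgf7-injected ears of rats 1 and 2, so the control library of rat 2 was low and the other 3 alike. Levels were 18.3 ± 9.15 CPM and 22.1 ± 2.62 CPM (SD, n = 2), with a log2 fold change of 0.28 (SE 0.46). Without the control library of rat 2 the log2 fold change was -0.16, and for H2afj it was 0.13 without the control library of rat 1. H2afy is listed as ENSMUSG00000015937 at mouse chr13:56073619-56136361 (minus strand). Its close relative H2afy2, for macroH2A2, had 1 and 5 counts in control and 1 and 0 in AAV-Fgf7-injected ears.

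H2afx, the gene of the DNA damage variant H2A.X, had 0 counts in both controls and in the AAV-Fgf7 ear of rat 1, and 1 count in that of rat 2. A count of 0 allowed up to 1.98 to 2.25 CPM in these libraries, so no difference could be detected at this depth. It is listed as ENSMUSG00000049932 at mouse chr9:44334694-44336077 (plus strand).

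Ordered by FPKM, H3f3b stood at the top of the 7 member rows in every library (856 to 1236) and H2afj came next (123 to 178). The pseudogene row H3f3a-ps2, with its shorter listed model, is not part of this order. It stood above H3f3b in FPKM and below it in raw counts. H3f3b was 6.54 to 8.84 times H2afj in the same library. Among the lower members the order was not stable. H2afz at 12.2 and 5.15 FPKM exceeded H2afv at 3.21 and 1.6 FPKM in the controls of rats 1 and 2. In the AAV-Fgf7 ear of rat 1 H2afv (55.4 FPKM) was 8.90 times H2afz (6.22 FPKM), and in that of rat 2 the genes were nearly level (28.7 and 30.6 FPKM). H2afy (1.73 to 3.62 FPKM) and H3f3a (0 to 3.3 FPKM) overlapped, and H2afx was lowest (at most 0.491 FPKM). H3f3b was 363 and 535 times H2afv in the controls and 16.4 and 43.1 times in the AAV-Fgf7 libraries.

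With the columns as numbered, the other tested members departed from H2afv in rat 1 and shared its direction in rat 2. Of the 6 tested members, 5 had a lower CPM in the AAV-Fgf7 ear than in the control ear of rat 1, and all 6 had a higher one in rat 2. H2afv was thus the tested member that was higher in the AAV-Fgf7 ear of both rats. Opposite directions in the 2 rats were common, at 59.2% of the tested genes. With the AAV-Fgf7 columns exchanged between the rats, H2afz (2.52 in rat 1 and 1.21 in rat 2) and H3f3b (1.07 and 1.06) were higher in the AAV-Fgf7 ear of both. Opposite directions were then left for 3 of the 6 tested members and 50% of all tested genes, so these directions depended on the assignment of the columns. Among all tested genes, 4 of 6370 (0.0628%) were at least 8-fold higher in the AAV-Fgf7 ear of each rat, counting a control of 0 as passing, namely H2afv, Kpna2, Psma2 and Rps2, and Rpl30 joined them with the columns exchanged. A single gene, Rabac1, was that much lower in each (0.0157%), and 0 genes were with the columns exchanged. All 4 higher genes had at most 7 counts in any control library, and they passed the low-count filter through their AAV-Fgf7 libraries alone.

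**Figure D4:**
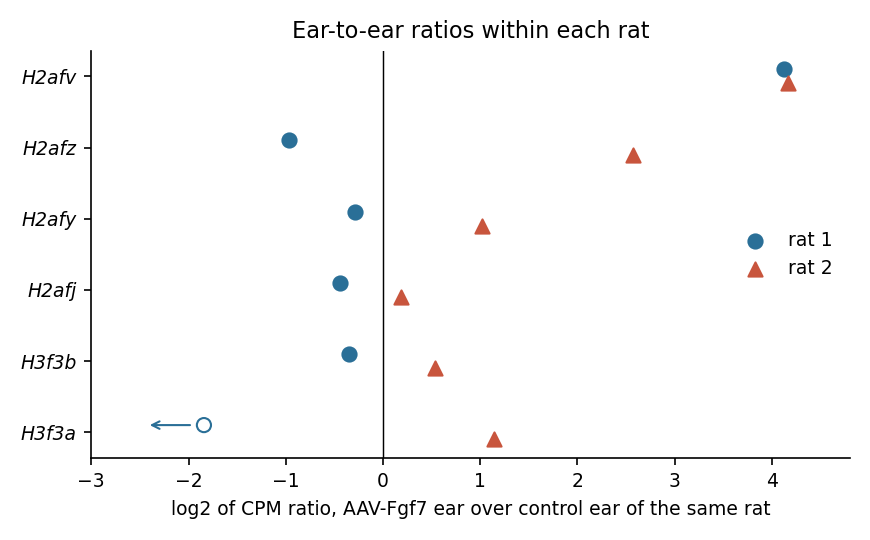
Log2 of the CPM ratio of the AAV-Fgf7 ear to the control ear of the same rat for the 6 tested members. Circles mark rat 1 and triangles rat 2, with the columns as numbered. H2afv lies near 4 in both rats, whereas the other 5 fall below 0 in rat 1 and above 0 in rat 2; the open circle with an arrow sets H3f3a at a floor of 3 counts, since its AAV-Fgf7 library of rat 1 had 0 counts.

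Between AAV-Fgf7 and control-injected ears, 0 of 6370 genes (0%) passed the edgeR quasi-likelihood test at an adjusted p threshold of 0.05. Without adjustment, 148 genes had p under 0.05. DESeq2 called 4 genes (0.0628%) and limma-voom called 0. The number of genes called by edgeR rose from 0 to 59 without the control library of rat 1 and to 40 without that of rat 2, fits with a lone control and 6948 and 6883 genes tested. Both AAV-Fgf7 libraries lay above both controls for 1 of the 6 tested members (H2afv), against 14.8% of all tested genes, and below both for 0 of them, against 13.3%. Nothing is read from the count for H2afv, which came into view through this comparison. The median log2 fold change of the tested members was 0.19, and 0.09 without H2afv, beside -0.02 over all tested genes.

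The difference between the rats had no part in choosing the members and was tested in a model with terms for virus and rat. edgeR called 0 of the 6 tested members and 0 of 6370 genes between rat 2 and rat 1 (0%), with 0 members and 86 genes at an unadjusted p under 0.05, while DESeq2 called 4 genes and 0 members. The largest difference in size was that of the sparsely counted H3f3a row at 1.45 (SE 1.5). H2afv followed at -0.96 (SE 0.38), being lower in rat 2 in both groups, with an adjusted p of 0.9997 by edgeR, and H2afz stood at 0.61 (SE 0.99). H2afy stood at -0.39 (SE 0.51), H2afj at -0.21 (SE 0.28) and H3f3b at 0.00 (SE 0.33). Each of these is a log2 difference of rat 2 over rat 1, and none passed the test. With the AAV-Fgf7 columns exchanged between the rats, edgeR called 41 of 6370 genes and 0 members. The signs of H2afv (0.52), H2afz (-1.80), H3f3a (-1.94) and H3f3b (-0.44) then changed, so this contrast also depended on the assignment of the columns.

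The 6 lists of related genes, from chaperones and remodellers to linker histones and histone message processing, held 39 tested genes, of which 0 were called by edgeR or DESeq2 in the comparison of AAV-Fgf7 with control-injected ears. By edgeR 1 of these 39 genes had an unadjusted p under 0.05, beside 148 of all 6370 tested genes. The log2 fold changes of the 39 genes ran from -0.53 (Trp53bp1) to 1.12 (Hist3h2ba). Their median was 0.06, beside -0.02 over all tested genes. They were positive for 24 genes and negative for 15 (61.5% positive, beside 47.8% of all tested genes).

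Exchange of H2A.Z is carried out by the SRCAP and p400/TIP60 complexes, and INO80 and the chaperone ANP32E are linked to its removal. Of 24 genes of this list 15 were tested, 7 with positive and 8 with negative log2 fold changes and a median of -0.12. Epc1, a scaffold subunit of the TIP60 complex, had 274 and 333 counts in control and 245 and 254 in AAV-Fgf7-injected ears, and its log2 fold change was -0.30 (SE 0.19). Anp32e had 80 and 106 counts against 124 and 105, a log2 fold change of 0.29 (SE 0.26). Meaf6, another TIP60 subunit, stood at 0.43 (SE 0.39). Vps72, which binds H2A.Z in the SRCAP complex, had the lowest value of the list at -0.49 (SE 0.72). The list summed to 1123 and 1009 CPM in control and 998 and 1093 CPM in AAV-Fgf7-injected ears of rats 1 and 2, so that the groups overlapped.

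H3.3 is deposited by the HIRA complex at genes and by DAXX and ATRX at repeats. Of 10 listed genes 7 were tested, with 4 positive, 3 negative and a median of 0.02. Nasp, a chaperone of free H3 and H4, had 50 and 65 counts in control and 95 and 89 in AAV-Fgf7-injected ears, and its log2 fold change was 0.66 (SE 0.27). The edgeR quasi-likelihood test gave Nasp an unadjusted p of 0.0493 and, after Benjamini-Hochberg adjustment, an adjusted p of 0.9995. Both AAV-Fgf7 libraries lay above both controls for Nasp. The histone chaperone gene Asf1b stood at 0.70 (SE 0.55) from 7 and 10 against 17 and 11 counts, and the HIRA partner Ubn1 at 0.25 (SE 0.22). Daxx was listed at 0 in all libraries.

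Of the 12 genes around H2A.X and the histone chaperone FACT, 6 were tested, 3 positive and 3 negative, with a median of -0.04. Trp53bp1, which encodes the damage response protein 53BP1, had 135 and 152 counts in control and 103 and 99 in AAV-Fgf7-injected ears, and its log2 fold change was -0.53 (SE 0.23). The remodeller gene Baz1b stood at -0.14 (SE 0.28) and the FACT subunit gene Ssrp1 at 0.11 (SE 0.33). Both AAV-Fgf7 libraries lay below both controls for Trp53bp1.

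Other histone genes were mostly without counts. In the list of other variants and linker histones 3 of 11 genes were tested, the linker histone genes H1f0 (log2 fold change 0.08, SE 0.18) and H1fx (0.25, SE 0.49) and the row H3f3c (0.20, SE 0.33). Cenpa, the centromeric H3 variant gene, was listed at 0 in all libraries. Of 70 replication-dependent histone genes 58 were at 0 in all libraries, and the list held 10 and 29 counts in control and 45 and 50 in AAV-Fgf7-injected ears. The 1 tested gene among them, Hist3h2ba, an H2B gene, had 3 and 22 counts against 26 and 28 (log2 fold change 1.12, SE 0.74). The protocol leaves undecided whether poly(A) selection or ribosomal RNA depletion was used, and messages without a poly(A) tail are lost in the former. Of 10 genes that process histone messages 7 were tested, 6 positive and 1 negative with a median of 0.32, led by Cpsf3 at 0.32 (SE 0.22), Cpsf2 at 0.47 (SE 0.44) and Lsm11 at 0.57 (SE 0.56).

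**Figure D5:**
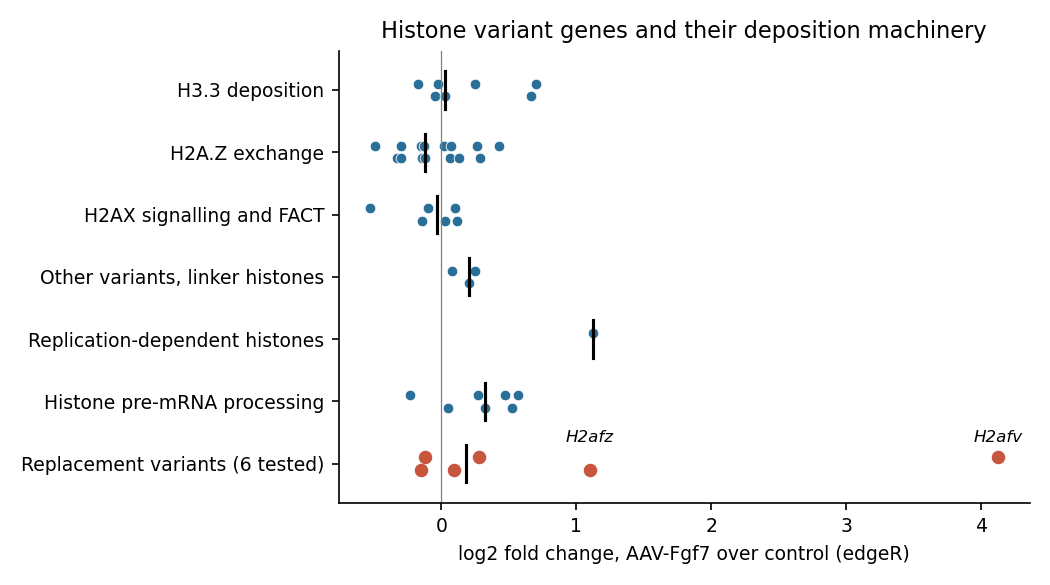
Log2 fold changes of AAV-Fgf7 over control (edgeR) for the tested genes of 6 related lists (blue) and the 6 tested members (red), with a black bar at the median of each. H2afv at 4.13 lies apart, while the related genes run from -0.53 to 1.12.

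The tested genes whose pattern over the 4 libraries was most like that of H2afv came from other families. Likeness was measured as the Euclidean distance between gene-centred log2 CPM values, and the 5 nearest genes had distances of 1.07 to 1.96, against a median of 3.84 over all tested genes. Kpna2, an importin alpha gene, had counts of 1 and 0 in control and 16 and 17 in AAV-Fgf7-injected ears. Rps2, a gene of the small ribosomal subunit, had 1 and 2 against 23 and 28, and Psma2, a proteasome subunit gene, had 0 and 1 against 12 and 10. Rpl30, a gene of the large ribosomal subunit, had 0 and 4 against 32 and 15, and Ehf, an epithelial ETS transcription factor gene, had 1 and 4 against 18 and 19. Each of these genes was nearly without counts in the controls, with at most 4 in a library. They were picked for likeness to H2afv and, like it, passed the low-count filter through their AAV-Fgf7 libraries alone. Their low controls are therefore no separate result. The other tested members lay at distances of 3.47 (H2afy) to 5.42 (H3f3a) from H2afv, with H2afz at 3.67, so that they were about as far from it as the median gene or farther.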

How the data were processed

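Counts and FPKM of 4 libraries were read from the deposited tables. The authors deposited raw counts per gene, summing to 1299136 to 1601321 per library, and FPKM, which per the file headers are given for the same gene models; the sources used here name neither aligner nor counter. The build was Rnor_6.0 (rn6) per the submitters' processing notes, although the rows carry mouse identifiers. The columns of gene model length deposited by the authors were used for description only. Libraries were assigned by the descriptions; those of both AAV-Fgf7 samples name 1 column, so the remaining column went to rat 2 by its number. No source says that the libraries were separate preparations beyond the ear and rat they came from.

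Genes were kept by filterByExpr (minimum count 10), scaled by TMM and fitted with the quasi-likelihood test of edgeR 4.0.16 in R 4.3.3 over 6370 genes, with Benjamini-Hochberg adjustment at 0.05. Standard errors are the log2 fold change over the root of F. The test was also run on simulated counts with a common spread for all genes, which does not show how well it works on these libraries. DESeq2 1.42.0, limma 3.58.1, RLE factors, library totals, other filters, FPKM with pseudocount 1, a replicate block, summed pseudogene rows and an exchange of the AAV-Fgf7 columns between the rats were alternatives. An exact permutation test of 2 against 2 cannot go below 0.333. All pairs of libraries differed beyond sampling noise (chi-square per degree of freedom of at least 6.26).

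The ears of a rat share its number in the titles, which pairs them by animal as far as the column numbers follow the rats. Deviations of same-rat libraries from their group means correlated at -0.30 over 6370 genes. Exchanging the AAV-Fgf7 columns reverses the sign of this correlation. Chi-square per degree of freedom between the ears of a rat as numbered was 9.47 in rat 1 and 20.5 in rat 2. Across the numbers it was lower, at 6.26 (control of rat 1, AAV-Fgf7 of rat 2) and 8.38 (control of rat 2, AAV-Fgf7 of rat 1). Which column belongs to which rat was not tested.

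Members, related lists and tests were chosen with earlier results of these data known. Named genes were all members, their described pseudogenes with counts, up to 3 genes of lowest p per related list, and the 5 genes nearest to H2afv; Vps72, Daxx, Cenpa, H2afy2, Rabac1 and the sums of rows were named after their values were seen. Marker lists of fibroblasts (26870 to 39430 CPM summed), cartilage (353 to 1315), adipocytes (40.6 to 163), endothelium (100.0 to 126) and macrophages with T cells (118 to 258) were read as well. Promoters were matched by symbol or synonym for 7 of 7 members.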

Additional observations from a re-analysis of the deposited data

Results flagged for a closer look

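Of the 6 tested members, 5 moved in opposite directions in the 2 rats, each by 1 pair of ears, and this difference was not tested. It depends on which AAV-Fgf7 column belongs to which rat. With these columns exchanged, 3 members did so, and H2afz (2.52 and 1.21) and H3f3b (1.07 and 1.06) were above 1 in both rats. The ratio of CPM in the AAV-Fgf7 ear to that in the control ear was 0.513 in rat 1 and 5.94 in rat 2 for H2afz. It was 0.817 and 2.02 for H2afy. For H2afj it was 0.734 and 1.13, and for H3f3b 0.785 and 1.44. H3f3a had a count of 0 in the AAV-Fgf7 ear of rat 1, against 10 in the control ear, and a ratio of 2.21 in rat 2. Of all tested genes 59.2% had opposite directions in the 2 rats. Groups of 2 libraries were too small for a check for single outlying libraries.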

How the results depend on the processing

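The count of 0 genes called between AAV-Fgf7 and control ears by edgeR was the same with RLE factors, library totals, a mean count of at least 10, limma-voom, log2(FPKM + 1) and members summed with their pseudogenes. It was also 0 with rat as a replicate block (75 genes had p under 0.05 before adjustment) and with a crossed replicate block, chosen after seeing the data (301 genes). It became 3 without a low-count filter and 4 with DESeq2, and ran from 0 to 59 when 1 library was left out (59 without the control of rat 1, 40 without that of rat 2), fits in which 1 group holds a lone library assumed to vary like the others. The count of 0 genes between the rats became 7 without a filter, 4 with DESeq2 and 5 with rat alone in the model and 41 with the AAV-Fgf7 columns exchanged between the rats (chosen after seeing the data), and ran from 5 to 12 when 1 library was left out, these last fitted with rat alone because virus and rat together leave no residual degree of freedom. The cause of these changes was not tested. The log2 fold change of H2afv in AAV-Fgf7 ears ran from 3.57 to 4.67 over 14 alternatives. As H2afv came into view through this comparison of the same libraries, that range is no separate result. The log2 fold changes of H2afz, H2afy, H2afj, H3f3a and H3f3b changed sign when some library was left out. That of H2afz ran between -0.46 and 1.83 and that of H3f3b between -0.15 and 0.33. That of the H3f3a row, at 0 counts in 1 library, also changed sign when summed with its pseudogenes. Between the rats, H2afv ran from -4.16 to 2.22 when 1 library was left out, values in which virus and rat are mixed; in the same fits each other tested member but H3f3a also changed sign. The replicate block changed no call. Low counts limit what can be said of H2afx, H3f3a, H2afy and, in controls, H2afv. For H3f3a far more counts lay on a pseudogene row of the same libraries. The part of depth and of the assignment of reads to rows in these low counts was not tested.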
